A study of Homo sapiens with 4 samples.

Results

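A549 cells, an established line from a human lung adenocarcinoma, were compared after 6 h in 10 μM GSK343 and as a control, with 1 Human OneArray Plus microarray for each condition. These are 2 of the 4 arrays of the study. The other pair is HepG2, a liver cancer line treated in the same way, and is used here only side by side. All cells were kept in DMEM with 10% heat-inactivated fetal bovine serum, total RNA was labeled with Cy5, and the vehicle of the control is not given in the labels. Each array held 31741 probes, of which 24740 name 1 gene, 977 name several genes and 6024 name none. The 31667 probes above 0 on both A549 arrays were kept, and 16300 of them were bright, meaning that the higher of the A549 values was at or above the median of the array it was on (460.1 for control, 498.8 for GSK343). The rest are called dim. Of the bright probes, 13857 name 1 gene, and they cover 11049 of the 18365 genes with a probe of their own. Differences are log2 of the GSK343 intensity minus log2 of the control intensity. With 1 array a side there is no replicate, no test and no error for any difference, and having so few arrays limits how precise any value is. Every statement below describes these 2 arrays.

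GSK343 is an inhibitor of EZH2, the catalytic subunit of Polycomb repressive complex 2 (PRC2), which methylates histone H3 at silenced genes. Many of the RNA differences described below lie in other systems. Sterol synthesis is controlled by SREBP transcription factors, which INSIG proteins hold in the endoplasmic reticulum while sterols are plentiful, and the integrated stress response acts through ATF4, which is translated when general translation is reduced and raises genes of amino acid supply and of feedback control.

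The labeled line was first set against marker genes. The 5 simple epithelium markers with their own probe (CDH1, EPCAM, KRT7, KRT8 and KRT19) were all bright, and KRT7 read 56123 in control and 54671 with GSK343. Of the lung markers 4 of 13 were bright, with a summed intensity of 20168 and 17551 in A549 and 3310 and 3056 in HepG2. Most of the A549 sum came from CEACAM6, at 13269 and 10505, followed by ABCA3 at 3058 and 3495. The bright probe of MUC5AC was brighter in HepG2 (1143 and 1087) than in A549 (854 and 703). Within that list NKX2-1, the lung lineage factor, and the surfactant protein genes SFTPA1, SFTPB, SFTPC and SFTPD were dim, so the defining alveolar markers were under the array medians. Hepatocyte markers summed to 6573 and 6520 in A549, and to 1969228 and 2059339 in HepG2. Of the leukocyte markers 4 of 7 were bright, with sums of 7693 and 11826 in A549 and 20101 and 24612 in HepG2. The pan-leukocyte gene PTPRC was dim. In that list CD3D, a T cell receptor subunit, read 1504 in control and 5006 with GSK343. The same CD3D probe read 6177 and 9907 in HepG2, so its signal was not limited to A549 or to GSK343. The other CD3D probe read 1.9 and 31.3 in A549. The part of other cell types in the results was not tested.

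With a threshold of 1 log2 unit, a 2-fold difference, GSK343 gave the higher value in 228 bright probes (1.4%) and the lower value in 34 (0.209%). Thus 87.02% of the probes past this size were on the higher side. Dividing each array by its own median lowers every difference by 0.12 and gives 149 higher and 54 lower probes, 73.4% higher. In 92 of the 228 higher probes the control value was under its array median, and in 25 of the 34 lower probes the GSK343 value was. Counted by gene, with the mean over the bright probes of a gene, 97 genes were at least 1 log2 unit higher (0.878%) and 22 were at least 1 log2 unit lower (0.199%). Only 13 of the 97 and 2 of the 22 belong to any of the 32 pathway lists used below, which hold 619 of the 11049 genes. Most genes past this size thus lie outside the systems described below, and those lists were chosen with earlier results known. The median gene difference was -0.01, with a 1st percentile of -0.68 and a 99th of 0.96. The sizes ran on across the threshold without a gap. HPDL (1.001) and MCCC2 (1.003) lay just past it on the higher side and KIAA0317 (0.9973) just short of it, and on the lower side RPL27A (-1.03) lay just past it and CD84 (-0.9962) just short.

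**Figure D1:**
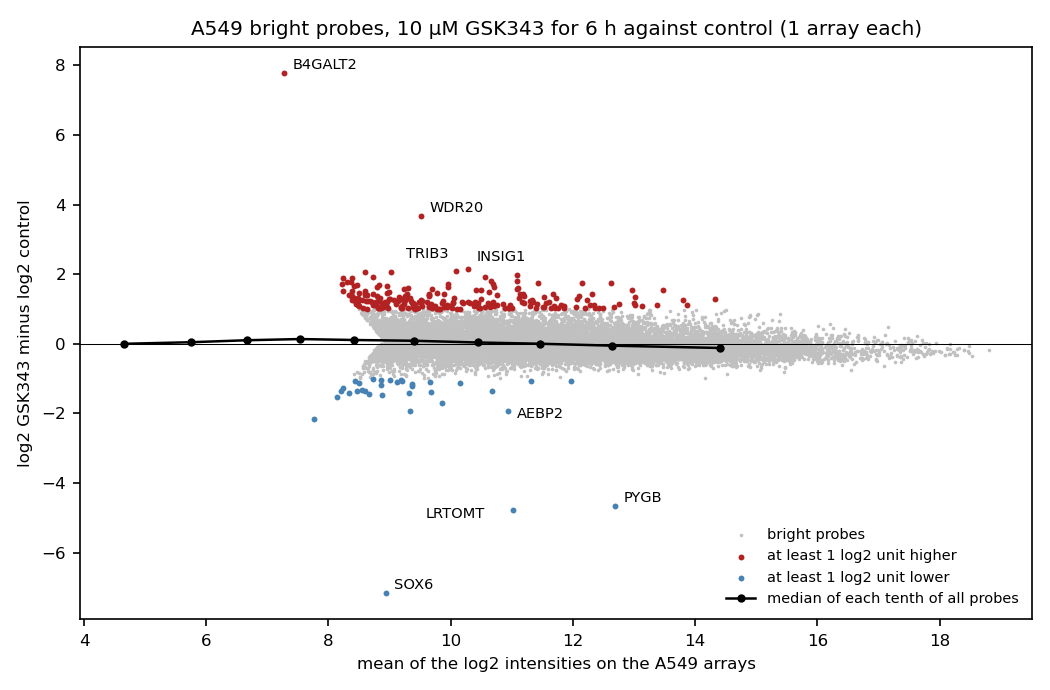
A549 bright probes, with the mean of the log2 intensities of both arrays on the x axis and the log2 difference, GSK343 minus control, on the y axis. Red points (228) are at least 1 log2 unit higher, blue points (34) at least 1 lower, and the black line joins the medians of all probes above 0 split into 10 equal groups by brightness, which run from 0.13 in group 4 to -0.12 in group 10, the brightest.

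The differences also moved with brightness. With all probes above 0 split into 10 equal groups by mean intensity, the median difference was 0.13 in group 4, 0.00 in group 8 and -0.12 in group 10, the brightest. Genes read by very bright probes therefore started from a slightly negative value, and the lists of ribosomal proteins, mitosis and replication are given below both as measured and with this trend subtracted.

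Different probes of a gene were the only check on a single difference that these arrays hold. Over 3124 pairs of bright probes of the same gene, from 2515 genes, the SD of their difference divided by the square root of 2 was 0.40, and in the brightest 25% of pairs, 781 in number, it was 0.34. The differences of paired probes were almost unrelated (r = 0.02 across pairs, which are not independent replicates). Of the 194 higher probes that name 1 gene, 105 had another bright probe of that gene. In 10 of these a further probe was also at least 1 higher, in 43 every other probe was below 0, and the median of the other probes was 0.04. The 10 are both bright probes of the 5 genes described next. Over all bright probes 1.4% were at least 1 higher, a smaller share than 10 of 105, and 5679 of 11049 genes were below 0. Of the 23 lower single-gene probes 3 had another bright probe, and in all 3 the others were above 0. A large difference in 1 probe was thus seldom shared by a further probe of the same gene. For this reason the genes whose bright probes all differed alike are described first, and a gene read by 1 bright probe is named as such.

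**Figure D2:**
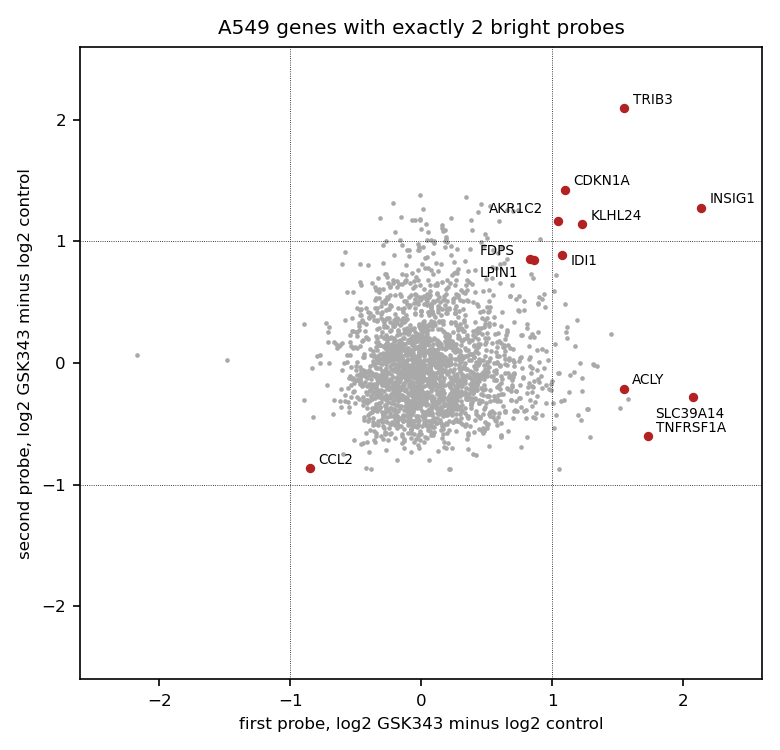
The log2 difference, GSK343 minus control, of both bright probes for the 2241 A549 genes with exactly 2, with dotted lines at 1 log2 unit. TRIB3, INSIG1, CDKN1A, KLHL24 and AKR1C2 are past 1 with both probes, CCL2 lies near -0.86 with both, and TNFRSF1A, SLC39A14 and ACLY are high with 1 probe and below 0 with the other. 1 gene lies outside the plotted range of 2.6.

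In 5 genes all bright probes, 2 for each, were at least 1 log2 unit higher, and in 0 genes were all at least 1 lower. TRIB3, a pseudokinase that ATF4 raises and that dampens AKT signaling, read 4682 in control and 13709 with GSK343, a difference of 1.55. Its second probe read 524 and 2241, a difference of 2.10. Both TRIB3 probes were among the 30 highest of the 13857 bright single-gene probes. INSIG1, the sterol-regulated anchor of the SREBP complex, read 13156 and 31938 (1.28) and 595 and 2613 (2.13) in its probes. CDKN1A, the cyclin-dependent kinase inhibitor p21, read 5647 and 12097 (1.10) and 1998 and 5372 (1.43). The p21 gene is a classical p53 target, and the p53 target list as a whole had a median of -0.02 over its 18 genes with a bright probe, with CDKN1A as the 1 gene past 1 log2 unit.

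KLHL24, a substrate adaptor of cullin ubiquitin ligases, read 292 and 684 (1.23) and 553 and 1221 (1.14). A further probe was dim at 101 and 184 (0.87), on the same side. AKR1C2, an aldo-keto reductase acting on steroids, read 682 and 1405 (1.04) and 1571 and 3522 (1.17). AKR1C2 is nearly identical in sequence to AKR1C1 and AKR1C3, so which transcripts its probes read is uncertain. The bright probe of AKR1C1 read 266703 and 231001 (-0.21) and that of AKR1C3 read 324482 and 263426 (-0.30), both brighter by far and on the lower side. These paralogs were looked up after the values of AKR1C2 were seen.

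A looser size of 0.7 for all bright probes of a gene gave 14 genes on the higher side and 1 on the lower. The 9 added genes were MLF2, IDI1, CBL, NRSN2, AGPAT2, LPIN1, FDPS, MSMO1 and CLCN6, of which IDI1, FDPS and MSMO1 belong to cholesterol synthesis and AGPAT2 and LPIN1 to glycerolipid synthesis. CBL, a ubiquitin ligase for receptor tyrosine kinases, read 897 and 1680 (0.90) and 318 and 646 (1.02). The gene on the lower side was CCL2, the monocyte chemoattractant, with 15437 in control and 8566 with GSK343 (-0.85) and 3879 and 2127 (-0.87). The size of 0.7 was chosen after the values were seen.

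Cholesterol synthesis enzymes had the highest median of the 32 pathway lists. Bright probes of their own covered 18 of 20 listed enzymes. Above 0 there were 17, 8 were at least 0.5 higher and 1 was at least 1 higher. The list median was 0.38, against -0.01 over all genes, and it lay between 0.24 and 0.41 in the 9 alternative settings. Its lowest value came with the brightest probe of each gene, where the list of the ATF4 pathway had 0.25. Over all genes 5370 of 11049 were above 0, 7.702% were at least 0.5 higher and 3.322% at least 0.5 lower.

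From HMGCS1 to HSD17B7 the enzymes are given in the order of the pathway, and those after HSD17B7 by falling size of the gene difference. HMGCS1, which makes the HMG-CoA that enters it, read 28659 and 31511, a difference of 0.14. MVK, mevalonate kinase, read 412 and 1014 in its bright probe, a difference of 1.30 that took it from under the array median to over it. IDI1, which isomerizes the building block of isoprenoids, read 6167 and 12986 (1.07) and 7238 and 13405 (0.89). FDPS, farnesyl diphosphate synthase, read 3782 and 6711 (0.83) and 1177 and 2134 (0.86). In both genes the probes differed from each other by less than the 0.40 spread between probes.

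SQLE, squalene epoxidase and the first oxygen-dependent step, read 12042 and 21489 (0.84). LSS, which closes the sterol ring, read 5906 and 10462 (0.82), with a dim second probe at 52.2 and 46.0. MSMO1, a sterol demethylation enzyme, read 7265 and 12091 (0.73) and 1081 and 1934 (0.84). HSD17B7, a ketosteroid reductase of the same demethylation step, read 1274 and 2074 (0.70). Between these and 0 lay ACAT2, an acetyl-CoA thiolase, at 6502 and 7871 (0.28) and 3213 and 6153 (0.94), EBP, a sterol isomerase, at 10215 and 13854 (0.44), and SC5DL, a sterol desaturase, at 2276 and 2586 (0.18) and 1497 and 2082 (0.48). Others were nearer to 0, with FDFT1, squalene synthase, at 0.18 (41422 and 46828), DHCR7 at 0.06 (21995 and 22958) and CYP51A1, the lanosterol demethylase, at -0.01 (4940 and 4911). The list therefore held enzymes near 0 beside enzymes near 1, and it did not differ by 1 common amount.

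The sterol sensing, uptake and efflux list had 12 of 17 genes with a bright probe and a median of 0.07, which turned to -0.05 with array median scaling. Its members lay on both sides. INSIG1 stood at the top. SREBF2, the SREBP factor of cholesterol genes, read 285 and 532 (0.90) in its single probe, while SREBF1, the factor of fatty acid genes, read 18916 and 17223 (-0.14) and 3800 and 4045 (0.09). MBTPS1, the protease that makes the first cut of SREBP, read 6445 and 10102 (0.65), and MBTPS2, which makes the next cut, read 13005 and 14043 (0.11) and 452 and 833 (0.88). STARD4, a cholesterol carrier, was dim at 144 and 327.

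The genes below 0 in that list included targets of the sterol receptor LXR. ABCA1, the cholesterol exporter, read 2154 in control and 1134 with GSK343, a difference of -0.93. MYLIP, a ubiquitin ligase that limits sterol uptake, read 585 and 337 (-0.79), and its dim probe read 245 and 138 (-0.83). ABCG1, another LXR-regulated exporter, was dim at 190 and 209. ABCA1 and MYLIP were the 2 genes of the list at least 0.5 lower, against 3.322% of all genes.

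**Figure D3:**
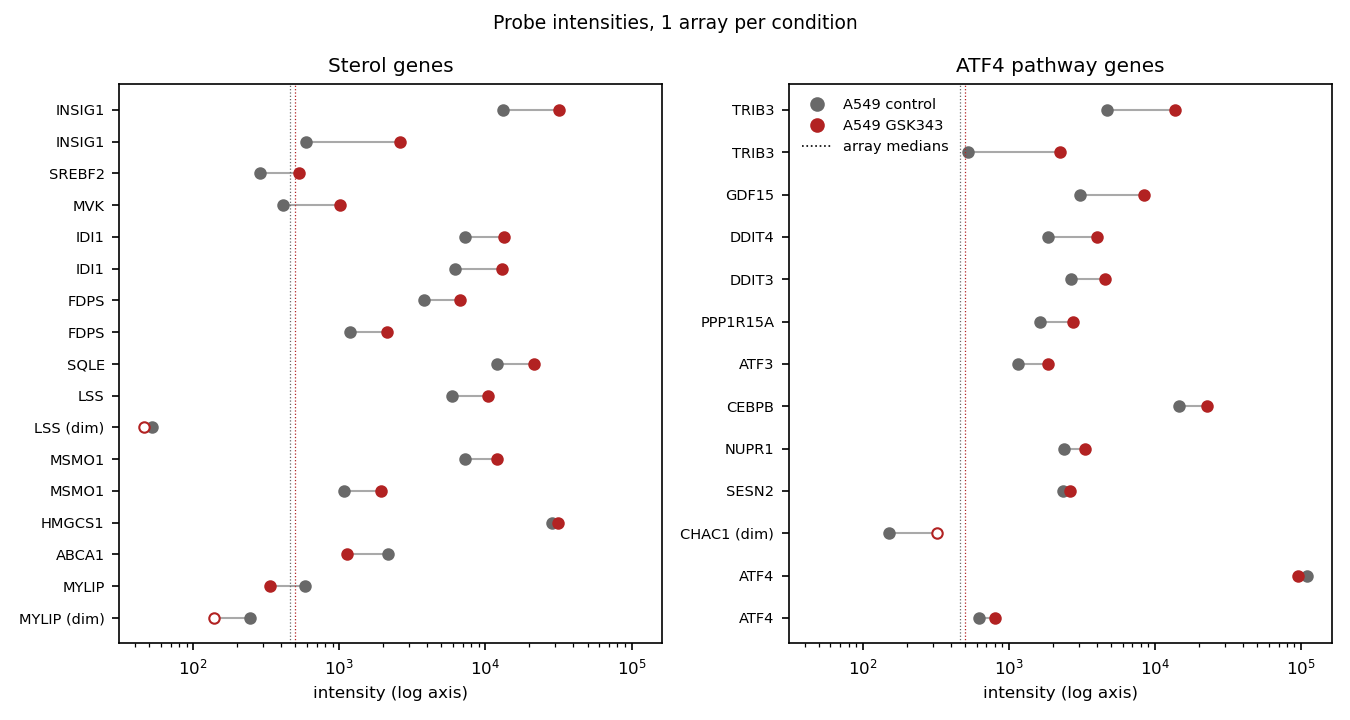
Intensity on a log axis for each probe of 11 sterol genes (left) and 11 genes of the ATF4 pathway (right), in A549 control (gray) and with GSK343 (red), 1 array each. Open red circles are dim probes and dotted lines are the array medians of 460.1 and 498.8. All sterol enzyme probes but the dim LSS probe lie to the right with GSK343, HMGCS1 only slightly, ABCA1 and MYLIP lie to the left, and both probes of TRIB3 and INSIG1 are among the widest gaps.

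The bases just before the start sites of these genes were read from RefSeq on GRCh38.p14, as 250 bases before each start site that the table lists for a gene, to show which motif letters the sterol and stress genes hold. A match is only a run of letters, a gene was counted when any of its start sites held one, and list counts cover genes with a bright probe. Both strands were searched for TCACNCCAC, the core of a sterol regulatory element, for TGATGNAA, the core of the C/EBP-ATF response element that ATF4 binds, and for CCAAT, the box bound by NF-Y, which was added after the sequences were seen. TCACNCCAC was held by 0 of 14 cholesterol enzymes with a promoter in the table and by 1 of 11 genes of sterol sensing, SREBF2, against 1.088% of 27305 genes. CCAAT was held by 12 of the 14 enzymes (85.71%), against 37.0% of all genes. It was also held by 9 of 11 amino acid enzymes (81.82%) and 9 of 16 ATF4 list genes (56.25%), so it was not limited to the sterol genes. The shares of all genes cover the whole promoter table, with or without a bright probe. They therefore come from an unlike set, and shares over all genes with a bright probe were not taken. None of these motifs contains another, and neither INSIG1 nor MVK holds the first or the second. The INSIG1 and MVK stretches are shown because these genes were at least 1 log2 unit higher, and that of SREBF2 because it holds the sterol element. Capitals mark CCAAT or its reverse complement ATTGG in INSIG1 and MVK, and only the sterol element in SREBF2. All 3 lie on the plus strand, INSIG1 at chr7:155297628-155297877, MVK at chr12:109573544-109573793 and SREBF2 at chr22:41832942-41833010.
INSIG1: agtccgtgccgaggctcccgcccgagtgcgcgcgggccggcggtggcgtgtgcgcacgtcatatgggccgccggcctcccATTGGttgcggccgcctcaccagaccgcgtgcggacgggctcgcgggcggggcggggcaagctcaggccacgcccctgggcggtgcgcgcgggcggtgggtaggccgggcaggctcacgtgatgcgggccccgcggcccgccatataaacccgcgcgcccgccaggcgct
MVK: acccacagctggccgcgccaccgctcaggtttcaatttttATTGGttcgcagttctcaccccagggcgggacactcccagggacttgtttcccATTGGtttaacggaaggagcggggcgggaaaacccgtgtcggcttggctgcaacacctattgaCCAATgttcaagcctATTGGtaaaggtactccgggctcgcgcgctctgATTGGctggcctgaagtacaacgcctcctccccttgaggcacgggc
SREBF2: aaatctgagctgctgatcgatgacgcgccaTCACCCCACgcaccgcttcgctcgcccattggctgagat

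INSIG1, with 1 CCAAT box in this stretch, had the difference of 1.28 and 2.13 in its probes, and MVK, with 5 boxes, had 1.30.

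Fatty acid and glycerolipid genes were mixed. The list had 18 of 20 genes with a bright probe and a median of 0.06, which was -0.05 with array median scaling. Of the 18 genes 11 were above 0, against 48.6% of all genes. LPIN1, the phosphatidate phosphatase that makes diacylglycerol, read 3534 and 6413 (0.86) and 3414 and 6136 (0.85). AGPAT2, which makes phosphatidate, read 3336 and 6057 (0.86) and 3633 and 6547 (0.85). In each gene the probes differed from each other by about 0.01, so the probes of each agreed closely. FADS2, a fatty acid desaturase, read 446 and 902 (1.02) in its single probe. FASN, the fatty acid synthase, read 46280 and 43207 (-0.10), and SCD, the stearoyl desaturase, read 31702 and 40742 (0.36). ACLY, which makes cytosolic acetyl-CoA, read 6666 and 19453 (1.54) with one probe and 116655 and 100813 (-0.21) with the brighter one, so the direction of ACLY depends on the probe.

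Genes of the ATF4 pathway formed the list with the next highest median. Of 22 listed genes 19 had a bright probe, 14 were above 0, 7 were at least 0.5 higher, 3 were at least 1 higher (TRIB3, GDF15 and DDIT4) and 0 were at least 0.5 lower. Over all genes 48.6% were above 0, 7.702% at least 0.5 higher, 0.878% at least 1 higher and 3.322% at least 0.5 lower. The median was 0.25, and it lay between 0.13 and 0.26 in the alternative settings. GDF15, a secreted stress hormone, read 3078 in control and 8345 with GSK343 in its single probe, a difference of 1.44. DDIT4, which inhibits the kinase mTORC1, read 1837 and 4020 (1.13).

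The transcription factors of the response lay lower. DDIT3, known as CHOP, read 2658 and 4555 (0.78), ATF3 read 1162 and 1862 (0.68) and CEBPB, a partner of ATF4, read 14585 and 22621 (0.63). PPP1R15A, the phosphatase subunit that restores translation, read 1643 and 2762 (0.75). These probes were all higher with GSK343, by more than the 0.40 spread between probes and by less than 1 log2 unit. That spread is close to the SD of 0.38 over all bright probes, so passing it does not set a gene apart. Of 9 control genes with a bright probe 5 were above 0 and 4 below, with a median of 0.02. PPIA (0.58) and GAPDH (0.48) among them were past the spread too. CHAC1, which degrades glutathione, was dim at 152 and 323 (1.09). ATF4 RNA itself read 110165 and 95182 (-0.21) and 620 and 797 (0.36), and ATF5, a relative, read 13677 and 10285 (-0.41).

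The amino acid supply genes that ATF4 is known to raise were closer to 0. The synthesis and one-carbon enzymes had a median of 0.08 over 16 genes with a bright probe, which was -0.03 with array median scaling. Of these 16 genes 2 were at least 0.5 higher, against 7.702% of all genes. PYCR1, of proline synthesis, read 3659 and 5662 (0.63) and PHGDH, the first enzyme of serine synthesis, read 1283 and 1827 (0.51). ASNS, asparagine synthetase, read 34947 and 31994 (-0.13), and SESN2, a leucine sensor, read 2327 and 2637 (0.18). The amino acid transporters had a median of 0.00 over 12 genes, with SLC3A2, the heavy chain of several exchangers, highest at 62022 and 92495 (0.58). The cytosolic tRNA synthetases had a median of 0.08 over 19 genes, again -0.03 with array median scaling, from FARSA at 0.79 (11157 and 19322) to LARS at -0.70 (58188 and 35720). The ATF4 list was therefore led by its feedback and signaling genes, TRIB3, GDF15, DDIT4, DDIT3 and PPP1R15A, with the supply genes near the middle of all genes.

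Counted in the same way, the motif TGATGNAA was held by 3 of 16 ATF4 list genes (18.75%), namely ATF3, CEBPG and JDP2, and by 4 of 11 amino acid enzymes (36.36%), against 3.886% of all 27305. The dim genes CHAC1 and FGF21 of the ATF4 list, outside that count, hold it too. Neither TRIB3 nor GDF15 holds it in these 250 bases. Of the counted holders in the ATF4 list, ATF3 differed by 0.68, CEBPG by 0.05 and JDP2 by -0.04. The enzymes that hold it were ASNS (-0.13), BCAT1 (-0.23), GOT1 (0.12) and MTHFD1L (-0.06). A link between the motif and the differences was not tested. The stretches of CHAC1 and ATF3 are shown, chosen after the sequences were seen, with the motif or its reverse complement in capitals. Both are on the plus strand, at chr15:40953232-40953299 for CHAC1 and chr1:212565186-212565253 for ATF3.
CHAC1: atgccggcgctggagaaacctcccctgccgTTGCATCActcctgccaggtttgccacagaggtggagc
ATF3: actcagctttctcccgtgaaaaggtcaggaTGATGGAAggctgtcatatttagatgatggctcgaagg

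Chaperones and degradation factors of the endoplasmic reticulum had a median of 0.14 over 20 genes with a bright probe, between 0.02 and 0.15 in the alternative settings. XBP1, the transcription factor spliced by the sensor IRE1, read 1343 and 2618 (0.96). HYOU1, a large chaperone, read 1284 and 2085 (0.70) and CALR, calreticulin, read 7647 and 11835 (0.63). DNAJB11, a co-chaperone, read 5052 and 3624 (-0.48), so the list did not differ in 1 direction.

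Genes of the BCL2 family, which holds inhibitors and promoters of apoptosis, included 2 of the higher single-probe genes. BCL2L1, which encodes BCL-XL, read 3541 and 7690 (1.12), and MCL1 read 2586 and 5267 (1.03). Both encode inhibitors of mitochondrial apoptosis. BCL2L2, a further inhibitor, read 6747 and 9943 (0.56), and BCL2A1, also an inhibitor and an NF-kB target, read 1283 and 848 (-0.60). Of the promoters of apoptosis, BAD read 21800 and 31867 (0.55), and BMF read 456 and 622 (0.45), with a dim probe at 208 and 342. BAD and BMF were added after their values were seen. The BCL2 family had a median of 0.19 over 12 genes, between 0.07 and 0.20 in the alternative settings.

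The immediate-early and MAPK feedback list had a median of 0.14 over 22 genes, between 0.02 and 0.22. KLF6, a zinc finger factor, read 3634 and 5895 (0.70) and 1676 and 3998 (1.25), and both of its dim probes were also higher (0.29 and 1.19). ETV5, an ETS factor downstream of ERK, read 10347 and 15748 (0.61) and 595 and 1156 (0.96). EGR1, an early growth response factor, lay at the other end with 567 and 294 (-0.95) in its single probe. DUSP4, an ERK phosphatase, read 32104 and 40639 (0.34) and 2719 and 7012 (1.37). The probes of KLF6 and of ETV5 thus shared a side but differed in size, and those of DUSP4 differed by 1 log2 unit.

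Inflammatory genes lay on both sides. The NF-kB list had 18 of 27 genes with a bright probe, of which 10 were below 0, 5 were at least 0.5 lower and 2 at least 0.5 higher, and a median of -0.13. Without the filter on brightness the median was 0.03. Over all genes 5679 of 11049 were below 0, 3.322% were at least 0.5 lower and 7.702% at least 0.5 higher. Besides CCL2, BIRC3, an inhibitor of apoptosis, read 6636 and 4044 (-0.71) and CXCL2, a neutrophil chemokine, read 5396 and 3316 (-0.70). NFKBIA, the inhibitor of NF-kB and an early target of it, read 58859 and 39292 (-0.58) and is named after its value was seen. Against these, LIF, an interleukin-6 family cytokine, read 1150 and 2440 (1.09). Among interferon genes IRF1, a transcription factor shared with this pathway, was lower in both probes, with 4218 and 3098 (-0.45) and 722 and 459 (-0.65).

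CTGF, a matrix-linked target of YAP, read 4929 and 2562 (-0.94), and CYR61, another, read 4265 and 3086 (-0.47). The YAP and TAZ list had a median of -0.08 over 14 genes, between -0.20 and -0.05 in the alternative settings. Of these genes 2 were at least 0.5 lower, against 3.322% of all genes. TEAD1, the DNA-binding partner of YAP, read 25695 and 17931 (-0.52), with a dim probe at 102 and 162 (0.68). WWTR1, which encodes TAZ, read 32598 and 23037 (-0.50) and 6680 and 5708 (-0.23).

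The gene of the inhibited enzyme, EZH2, read 8685 in control and 8816 with GSK343, a difference of 0.02. Its RNA is no check of inhibition. Its homolog EZH1 read 3010 and 3127 (0.05). Of the other core subunits, SUZ12 read 30619 and 25693 (-0.25) and EED read 14814 and 11043 (-0.42), with a dim EED probe at 189 and 210 (0.16). The accessory subunit AEBP2 read 3862 and 1006, a difference of -1.94 in its single probe and the widest of the PRC2 list. Over all 11 subunits the median was -0.19, between -0.30 and -0.14 in the alternative settings. Of the 11 subunits 8 were below 0, against 5679 of all 11049 genes.

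Genes under Polycomb control were represented by the HOX cluster. Of 39 listed HOX genes 19 had a bright probe, with a median of -0.03, 9 above 0 and 0 past 1 log2 unit in either direction. Over all genes 48.6% were above 0, 0.878% at least 1 higher and 0.199% at least 1 lower, so 0 of 19 is near the share of all genes. The 20 HOX genes without a bright probe were not counted, so the list leaves out those with low values in both conditions. HOXC6 was the highest at 775 and 1387 (0.84) and HOXB7 was among the lowest at 9115 and 6585 (-0.47). CBX2, a subunit of the other Polycomb complex, read 790 and 283 (-1.48) with one probe and 6935 and 7056 (0.03) with the brighter one.

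Metallothioneins, small proteins that bind zinc and copper and respond to both metals, differed little in A549. Of 11 listed genes 4 had a bright probe of their own, and their median was 0.21. MT2A, the most abundant, read 82167 and 74994 (-0.13), MT1X read 19504 and 22135 (0.18) and MT1A read 2327 and 2744 (0.24). MT3, the form known from brain, read 840 and 1626 (0.95). MT1E was dim at 413 and 334, as was MT1B at 86.3 and 114. In HepG2 the same probes differed by 0.81 for MT2A, 1.78 for MT1X, 1.68 for MT1A and 1.26 for MT1E, which read 70377 and 168295 there, and by -0.60 for MT3. MT1B differed most there, by 4.48 (405 and 9037). Metallothionein genes are close relatives, so which of them a probe reads is uncertain. A bright probe that names 8 of these genes and pseudogenes read 2803 and 3223 (0.20) in A549. In HepG2 it read 6959 and 25363 (1.87). The probe that names MT1M and MT1JP was dim in A549 at 125 and 89.0 (-0.49) and read 1587 and 14396 (3.18) in HepG2. The difference between the lines was not tested.

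**Figure D4:**
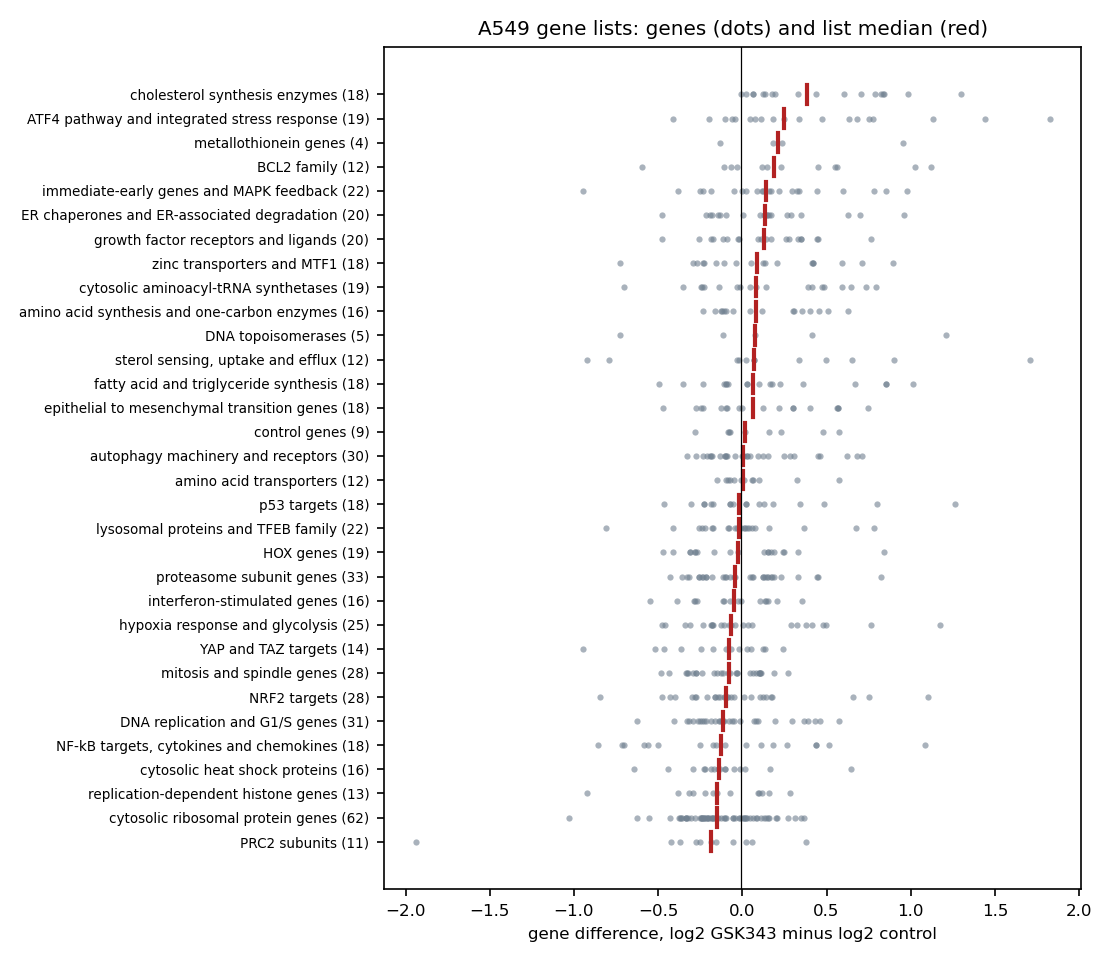
Gene differences in A549, log2 GSK343 minus log2 control, for 32 pathway lists, with the number of genes that have a bright probe in brackets, 1 dot per gene and the list median as a red bar. The thin line is the median of all genes (-0.01). Cholesterol synthesis enzymes (0.38) and the ATF4 pathway (0.25) have the highest medians and PRC2 subunits (-0.19) the lowest, and 18 of the 32 medians change sign in at least 1 alternative setting.

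The other lists had medians between -0.15 and 0.13. Replication-dependent histone genes had a median of -0.15 over the 13 of 55 genes with a bright probe. It was also -0.15 with the trend with brightness subtracted, and between -0.27 and -0.09 in the alternative settings. Cytosolic ribosomal protein genes had a median of -0.15 over 62 genes, which was -0.01 once the trend with brightness was subtracted. DNA replication genes had -0.12 over 31 genes, which was -0.07 with the trend subtracted, and mitosis genes had -0.08 over 28, which was then 0.04. In the autophagy list, with a median of 0.01 over 30 genes, SQSTM1, the receptor p62, read 16594 and 27114 (0.71), ULK1, the initiating kinase, read 1918 and 3080 (0.68) and MAP1LC3B, which encodes LC3B, read 3651 and 5032 (0.46). In the lysosome list CTSD, cathepsin D, read 8947 and 15353 (0.78), while ATP6V1A, a subunit of the proton pump, read 59600 and 34010 (-0.81). Of the NRF2 targets, with a median of -0.10 over 28 genes that was 0.02 with the trend subtracted, HMOX1, heme oxygenase, read 2020 and 3186 (0.66) and GCLC, of glutathione synthesis, read 1159 and 646 (-0.84). The autophagy, lysosome and NRF2 lists held single genes away from 0 without a shift of the list. ENO2, an enolase of the hypoxia and glycolysis list, read 5462 and 12300 (1.17), and in the same list PFKL, phosphofructokinase, read 2514 and 3190 (0.34) and 1598 and 2497 (0.63). In bulk RNA, fewer cells of a kind and less RNA per cell cannot be told apart.

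The widest single-probe differences were mostly not shared by other probes. The highest of all was a probe of B4GALT2, a galactosyltransferase, at 10.4 in control and 2290 with GSK343 (7.78, or 5.28 with 50 added to each value), while its other, brighter probe read 10959 and 10427 (-0.07). In HepG2 the same probe read 4154 in control and was listed at 0 with GSK343. WDR20, an activator of deubiquitinases, read 206 and 2608 (3.66) with 1 probe and 1974 and 2174 (0.14) and 473 and 440 (-0.11) with the others. SLC39A14, a zinc importer, read 190 and 797 (2.07) and 912 and 749 (-0.28), and TNFRSF1A, the main TNF receptor, read 3472 and 11527 (1.73) and 29810 and 19675 (-0.60). In each of these genes the probe that differed most was the dimmer one in control. GLUL, glutamine synthetase, read 255 and 1058 (2.05), with a dim probe at 201 and 227.

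At the lower end, SOX6, a developmental transcription factor, read 5886 in control and 41.1 with GSK343 (-7.16), and its other probes were dim at 48.4 and 42.1 and at 81.6 and 73.4. The HepG2 values of that probe were 78.4 and 86.9, so the A549 control array was the 1 array of 4 with a high value. LRTOMT read 10910 and 397 (-4.78) with 1 probe, against 2909 and 5538 (0.93) and 1417 and 1786 (0.33) with the others, and here too the A549 control stood apart from 218 and 233 in HepG2. PYGB, the brain form of glycogen phosphorylase, read 33249 and 1316 (-4.66) in its single probe and 16783 and 14872 in HepG2, so the GSK343 array was the low one. VPS13C, a lipid transfer protein, read 462 and 103 (-2.17) and 6960 and 7285 (0.07). NNAT, an imprinted gene, read 1261 and 334 (-1.92), with 1540 and 550 (-1.49) in HepG2. RARB, a retinoic acid receptor, read 1044 and 392 (-1.41) in its single probe and was dim in HepG2. Others of the 15 lowest were lower in both lines. Differences in A549 and HepG2 were -1.37 and -1.30 for FAM186B, -1.35 and -1.36 for CCR6 and -1.34 and -1.21 for PLEKHD1. They were -1.23 and -1.51 for MAPT-IT1, -1.155 and -1.69 for CAPN9, -1.13 and -0.91 for POU3F1 and -1.40 and -0.14 for CCL15. Dim A549 probes gave 0.02 and -0.68 for CCR6, -0.50 for MAPT-IT1 and 0.425 for CAPN9.

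Set beside HepG2, the higher and the lower A549 probes stood differently. Of the 228 higher probes 227 had a HepG2 difference, and 14 of these were at least 1 higher there as well, 24 were at least 1 lower, 61 were above 0 and 166 were below 0. Over all bright A549 probes 50.95% were above 0 in HepG2, 0.5403% were at least 1 higher and 1.332% at least 1 lower. Of the 34 lower probes 17 were also at least 1 lower in HepG2 and 27 were below 0. Each line has its own control array, and no difference between the lines could be tested.

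Among the sterol genes, IDI1 (0.55 and 0.75 in HepG2), MSMO1 (0.52 and 0.96), SQLE (0.46) and LSS (0.47) were above 0 in both lines, as was LPIN1 (1.30 and 1.29). HMGCS1 read 29819 and 69000 in HepG2, a difference of 1.21 against 0.14 in A549. FDPS was below 0 in HepG2 (-0.48 and -0.04). INSIG1 could not be compared, since its probes were dim in HepG2 at 72.2 and 137 and at 26.1 and 23.8, where A549 reached 31938. The cholesterol list median was 0.46 in HepG2 and 0.38 in A549. Of the stress genes, DDIT3 was higher by a like amount in both (0.73 in HepG2), while TRIB3 (0.43 and -0.27), GDF15 (-0.64) and CDKN1A (-0.42 and -0.70) were not at least 0.5 higher in HepG2. CTGF was lower in both lines (-0.77 in HepG2).

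**Figure D5:**
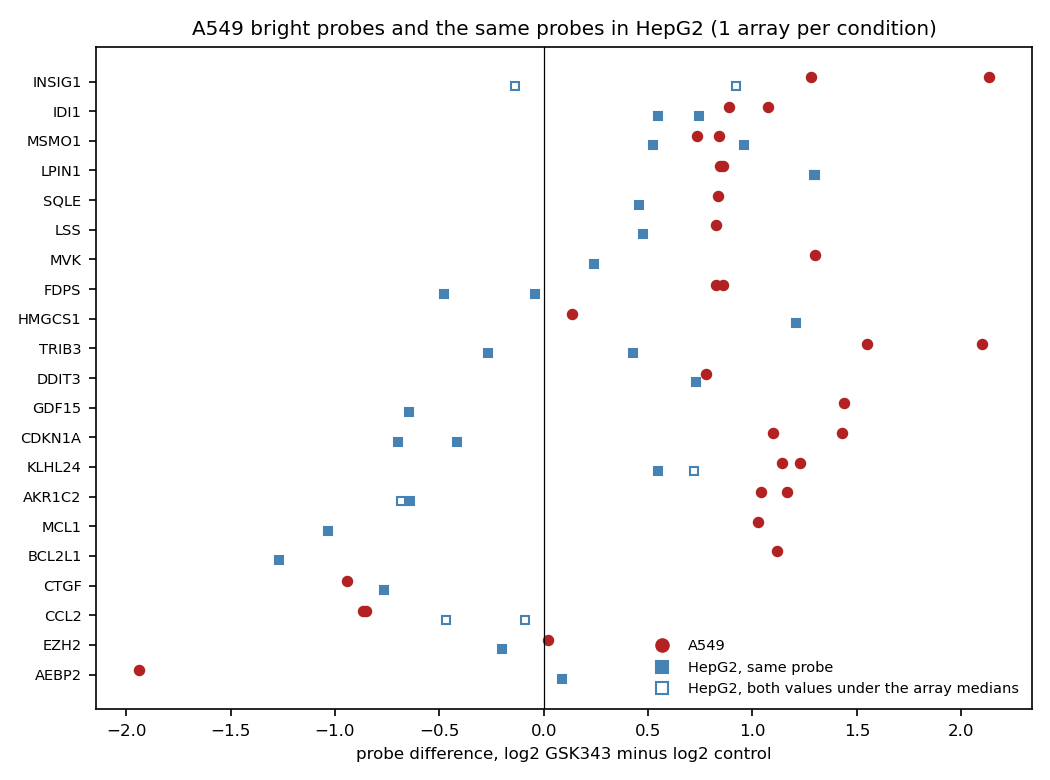
Log2 difference, GSK343 minus control, of bright A549 probes of 21 genes (red circles) and of the same probes in HepG2 (blue squares, open where both HepG2 values are under the array medians), 1 array per condition. IDI1, MSMO1, LPIN1, SQLE and LSS lie right of 0 in both lines, and CDKN1A, GDF15, MCL1 and BCL2L1 lie right of 0 in A549 and left of 0 in HepG2.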

How the data were processed

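The authors deposited processed Cy5 spot intensity values on a linear scale, 1 array per condition, without flags or background columns. RNA had been amplified with an Eberwine-based kit. The scanner, background correction and normalization are not given in the sources used here, so they could not be repeated, and their effect on the small values is unknown. Gene names are those of the platform annotation, which can be old.

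Differences were taken as log2 GSK343 minus log2 control over probes above 0 on both arrays, without further scaling. A gene value was the mean over its bright probes that name it alone. Genes named are the 15 highest and 15 lowest bright single-gene probes, genes whose bright probes all differ by at least 1 log2 unit, up to 4 genes of each list by size and members of 6 lists (ATF4 pathway, amino acid synthesis, sterol sensing, cholesterol synthesis, metallothionein, PRC2), not all of which are described. The members, the 32 pathway lists and 5 marker lists were chosen with earlier results of these data known. Genes outside this rule are named as chosen after their values were seen. Alternatives were median centring, quantile normalization, an offset of 50, other brightness filters, a size of 1.5, single-gene probes, the brightest probe per gene and shared probes. Array median scaling and subtraction of a lowess curve (fraction 0.3) were added after the values were seen. The scripts were tested on simulated data. Python 3.11.15, numpy 2.4.6, pandas 2.3.3, statsmodels 0.14.6 and matplotlib 3.10.9 were used. Promoter sequences came from RefSeq, GRCh38.p14, by gene symbol.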

Additional observations from a re-analysis of the deposited data

Results flagged for a closer look

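In 7 genes the lines differed by at least 1 log2 unit in opposite directions, 6 of them higher with GSK343 in A549 and 1 lower. In A549 97 genes (0.878%) were at least 1 higher and 22 (0.199%) at least 1 lower, so the higher side had more genes to draw on. Over all bright A549 probes 1.332% were at least 1 lower in HepG2 and 0.5403% at least 1 higher. The number of genes with a bright probe in both lines was not counted. The difference between the lines was not tested, since each condition had 1 array. BCL2L1 differed by 1.12 in A549 and -1.27 in HepG2 (11339 in control and 4704 with GSK343), and MCL1, its relative in blocking apoptosis, by 1.03 and -1.03 (5989 and 2929 in HepG2). TOP1, DNA topoisomerase I, differed by 1.21 (363 and 840) in A549 and by -1.40 (1411 and 536) in HepG2. CLPTM1 differed by 1.14 (4629 and 10224) and -1.03 (4960 and 2430), and OR10AD1, an olfactory receptor gene, by 1.44 (1407 and 3826) and -1.25 (4767 and 2003). ARL6, a small GTPase of the cilium, differed by 1.28 (398 and 963) and -4.54 (3444 and 148), while its other probe was dim in both lines. VPS13C differed by -1.05 as the mean of its probes in A549 and by 1.72 in HepG2, and in both lines the dimmer probe set this value (-2.17 and 3.58), with the brighter one at 0.07 and -0.15.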

How the results depend on the processing

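Depth cannot be given for arrays, and the limits here are 1 array a side and a spread of 0.40 between probes. The main counts were 228 and 34 probes and 97 and 22 genes, higher and lower. Array median scaling gave 149 and 54 probes and 37 lower genes. No filter on brightness gave 499 and 242 probes and 171 and 98 genes, and a filter at the 25th percentile gave 373 and 84 probes and 146 and 46 genes. With both values at or above the array median there were 136 and 9 probes and 53 and 6 genes, and with the mean of the log2 values at or above its median 19 lower probes. A size of 1.5 log2 units left 40 and 8 probes and 23 and 4 genes. Taking the brightest probe of each gene turned the sign of B4GALT2 (-0.072), LRTOMT (0.93) and VPS13C (0.066), by construction, since it drops the dimmer probes. Of 1708 values for named genes in alternative settings 1677 moved by no more than the spread between probes and 28 by more. Those 28 came with no filter on brightness (14), the brightest probe per gene (12) and the offset of 50 (2). This count is no check of the named differences. Array median scaling, the largest shift of the median of all probes, lowers differences by 0.12, well under 0.40. A filter cannot change the value of a gene that has 1 probe. Of 288 list medians 246 moved by no more than that spread divided by the square root of the number of genes and 42 by more, 28 of them under array median scaling. No paired analysis was possible because each condition had 1 array.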

Other observations

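Probes that name no gene held 27 of the 228 higher and 10 of the 34 lower probes, and probes that name several genes held 7 and 1. These were not described further. The highest-ranked probes also included KCNH6, a potassium channel gene, at 778 and 2956 (1.93), SLC6A19, an amino acid transporter of kidney and gut, at 1164 and 4093 (1.81, with a dim probe at 46.5 and 31.3), and DOLK, which makes the dolichol phosphate used in glycosylation, at 2477 and 8352 (1.75). SLC26A1 (1.90), PIK3R5 (1.88), OR5K3 (1.79) and EPHA10 (1.76) were also among the 15 highest. Dim second probes lay at -0.08 for SLC26A1, 0.11 for PIK3R5 and 0.01 for EPHA10. Receptor tyrosine kinase genes gave probes that differed among themselves. EGFR read 2290 and 2413 (0.08), 278 and 884 (1.67) and 380 and 554 (0.54), and MET read 55532 and 42763 (-0.38) and 2767 and 6692 (1.27). FGFR1 read lower in both probes, with 31598 and 21603 (-0.55) and 2313 and 1749 (-0.40).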
